A study of Mus musculus with 8 samples.

Results

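The cytosolic ribosomal protein genes were followed in mouse embryonic stem cells in which Rif1 was lowered by a short hairpin RNA (shRNA). A probe set was taken as a member when its only gene symbol was Rpl, Rps or Rplp followed by a number and an optional letter, which left out the Rps6k kinases and names with -ps. This gave 98 of the 45101 probe sets on the array, for 45 of the 18194 genes that have a probe set of their own, 24 of the large subunit (Rpl and Rplp) and 21 of the small subunit (Rps). Of these, 95 probe sets of 44 genes passed the filter on low signal. The 3 that did not belonged to Rps3, Rps6 and Rps16, had signals of 5.80 to 47.04, and included the only Rps16 probe set. Another 110 probe sets name a ribosomal protein gene together with other symbols, mostly predicted genes. They are no members, and 28 ribosomal protein symbols appear only among them. Rpsa and Fau encode ribosomal proteins but lie outside the naming rule.

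The study used 8 arrays in 4 groups of 2, in 2 settings. J1 cells (strain 129S4/SvJae) were transfected with control shRNA or Rif1 shRNA and collected 48 h later. F1 cells (C57BL/6xC3H) with control shRNA or Rif1 shRNA were a stable line at passage 16, and the F1 control labels also carry the name of the stable knockdown line. The treatment protocol speaks of virus or siRNA. All cells were grown on feeder cells. The labels do not tell whether the 2 arrays of a group stem from different cultures. The p-values, standard errors and intervals may therefore reflect technical spread alone.

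A ribosome is built from ribosomal RNA and a set of small, mostly basic proteins, each normally present once per particle. The genes for these proteins lie scattered over the genome and are among the most strongly transcribed in growing cells such as embryonic stem cells. Their transcripts typically begin with a run of pyrimidines, the 5′ terminal oligopyrimidine motif, through which mTOR signalling adjusts their translation. Ribosomal protein genes also have many processed pseudogenes, and a few have functional paralogs with restricted expression, among them Rpl39l and Rpl3l.

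The start sites of genes that the results turn on are shown first, because a pyrimidine run at the start is the feature for which transcripts of the family are known. Each line holds 15 bases on either side of the annotated start, in GRCm38.p6 from RefSeq, on the gene's own strand. Capitals mark the longest run of C and T in the 30 bases. The genes are Rpl39l (chr16:10170213-10170242, plus strand), its partner Rpl39 (chrX:37085208-37085237, minus strand), Rpl12 (chr2:32961697-32961726, plus strand), Rps25 (chr9:44407699-44407728, plus strand), Rps10 (chr17:27635230-27635259, minus strand), Rps24 (chr14:24490663-24490692, plus strand), Rpl35 (chr2:39005117-39005146, minus strand) and Rpl4 (chr9:64173372-64173401, plus strand).
Rpl39l: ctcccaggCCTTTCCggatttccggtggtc
Rpl39: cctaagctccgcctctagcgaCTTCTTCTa
Rpl12: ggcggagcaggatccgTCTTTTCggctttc
Rps25: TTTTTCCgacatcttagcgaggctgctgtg
Rps10: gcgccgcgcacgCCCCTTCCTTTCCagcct
Rps24: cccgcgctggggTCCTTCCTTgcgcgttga
Rpl35: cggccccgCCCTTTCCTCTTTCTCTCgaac
Rpl4: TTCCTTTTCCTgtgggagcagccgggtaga

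Of the 45 member genes, 39 had such a window. A run of at least 8 letters that were each C or T, searched on the gene's own strand within 20 bases of the start, was found in 19 of them (48.7%). Among all 27025 genes of the same table it was found in 18.4%. The run need not touch the start, so these are not shares of transcripts that begin with it. In the printed bases the runs of Rpl39l, Rps25 and Rpl4 end at or before the annotated start, and those of Rpl39 and Rpl12 begin after it. Rpl39l and Rpl12 had a longest run of 7, while Rps10, Rps24, Rpl35 and Rpl4 had runs of 13, 9, 18 and 14. The runs of Rps25 and Rpl4 continue upstream of the printed bases, to 12 and 14. The E-box CACGTG, a palindrome that Myc proteins can bind, was present between 250 bases before and 50 after the start in 4 of the 39 genes (10.3%) against 8.09% of all genes. These are matches of letters and were not tested for function.

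The first question was whether the knockdown was present and what else moved with it. The brightest Rif1 probe set read 2918 ± 430 (SD, n = 2) on J1 control arrays and 1278 ± 26.0 on J1 Rif1 shRNA arrays, and 4239 ± 11.8 and 1373 ± 48.2 in F1, as deposited MAS5 signal. The log2 change was -1.08 in J1 and -1.74 in F1, both with a standard error (SE) of 0.08. Signals of embryonic stem cell markers such as Pou5f1 and Sox2 were present on every array, with sums over 10 markers of 47511 to 49257 in J1 and 57395 to 59827 in F1. In J1, 0 of these markers passed the limma test, with 3 at an unadjusted p under 0.05. Over the whole array, 5404 of the 31605 probe sets tested were under that unadjusted p in J1. In F1, Tdgf1 rose and Sox2, Zfp42, Esrrb, Utf1 and Dppa4 fell, while 8.28% of the array was called higher and 6.81% lower. The summed signal of 12 fibroblast markers was 8365 and 7148 on J1 control arrays against 6986 and 6813 with Rif1 shRNA, and 9068 and 8644 on F1 control arrays against 24332 and 22943. In F1, 11 of those 12 rose, against 8.28% of the array. In J1, 5 of them fell, against 1.74% of the array. The lowest deposited value was 1, so a signal over 0 does not show that a marker was present. Col3a1, Postn and Dcn read 27.16 to 45.28 on J1 arrays, within the range of the untested members (up to 47.04). The other fibroblast markers read higher in J1. The actin 3′ to 5′ signal ratio, a measure of RNA integrity, was 2.71 and 2.61 on J1 control arrays, 2.18 and 2.17 on J1 Rif1 shRNA arrays, and 1.33 to 1.41 on all F1 arrays. The part of these differences in the results that follow was not tested. In bulk RNA, fewer cells of a type and less RNA per cell cannot be told apart.

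Ribosomal protein probe sets were among the brightest on every array. Between 66 and 69 of the 98 members lay in the top 2% of signals. The members together made up 6.37% to 6.57% of the summed signal in J1 and 4.67% to 4.79% in F1. With the probe sets that carry several symbols, these shares were 14.8% to 15.1% in J1 and 10.4% to 10.7% in F1. Within J1 the control shares of 6.47% and 6.41% lay inside the range of the Rif1 shRNA shares of 6.57% and 6.37%. Within F1 the control shares of 4.79% and 4.77% lay just above the 4.67% of both Rif1 shRNA arrays.

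Lowering Rif1 left most of these genes near their control level in both settings. With each gene read at its brightest tested probe set, the median log2 change over the 44 genes was 0.006 in J1 and -0.01 in F1, beside 0.006 and -0.02 over all 14714 genes. The J1 median had no stable sign, at -0.0312 with median centring and 0.0418 without J1 Rif1 shRNA replicate 2, and the F1 median was -0.0432 when a gene's tested probe sets were averaged. The median size of the change, regardless of sign, was 0.03 in J1 and 0.04 in F1. Over all 95 probe sets the changes ran from -0.43 to 0.24 in J1 and from -0.73 to 0.43 in F1. Changes are on the scale of log2(signal + 18) after quantile normalization. The offset shrinks the change of dim probe sets, while the normalization moved F1 changes either way. Without normalization the F1 change of Rpl39l was -0.64 instead of -0.73, and that of a dim Rps10 probe set -0.74 instead of -0.69.

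In J1, 3 of the 95 member probe sets passed a limma adjusted p under 0.05 (3.16%), 2 higher and 1 lower. Over the whole array the share was 3.18%, with 1.44% higher and 1.74% lower, so the members' share was near the background. In F1, 10 of the 95 passed (10.5%), 2 higher and 8 lower, against 15.1% of the array, with 8.28% higher and 6.81% lower. The F1 count was 19 with the 4 F1 arrays alone. It was 4 without F1 Rif1 shRNA replicate 1 or F1 control replicate 1, 5 without replicate 2 of either, and 14 and 15 without J1 Rif1 shRNA replicate 1 and 2. The F1 effect differed from the J1 effect for 4 members (4.21%), all lower in F1, against 8.37% of the array, with 4.99% higher and 3.37% lower. On the deposited scale without normalization the J1 calls were 3 higher and 0 lower, and the calls of a difference 1 higher and 5 lower. With median centring the difference was 1 higher and 3 lower, and J1 had 0 calls.

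**Figure D1:**
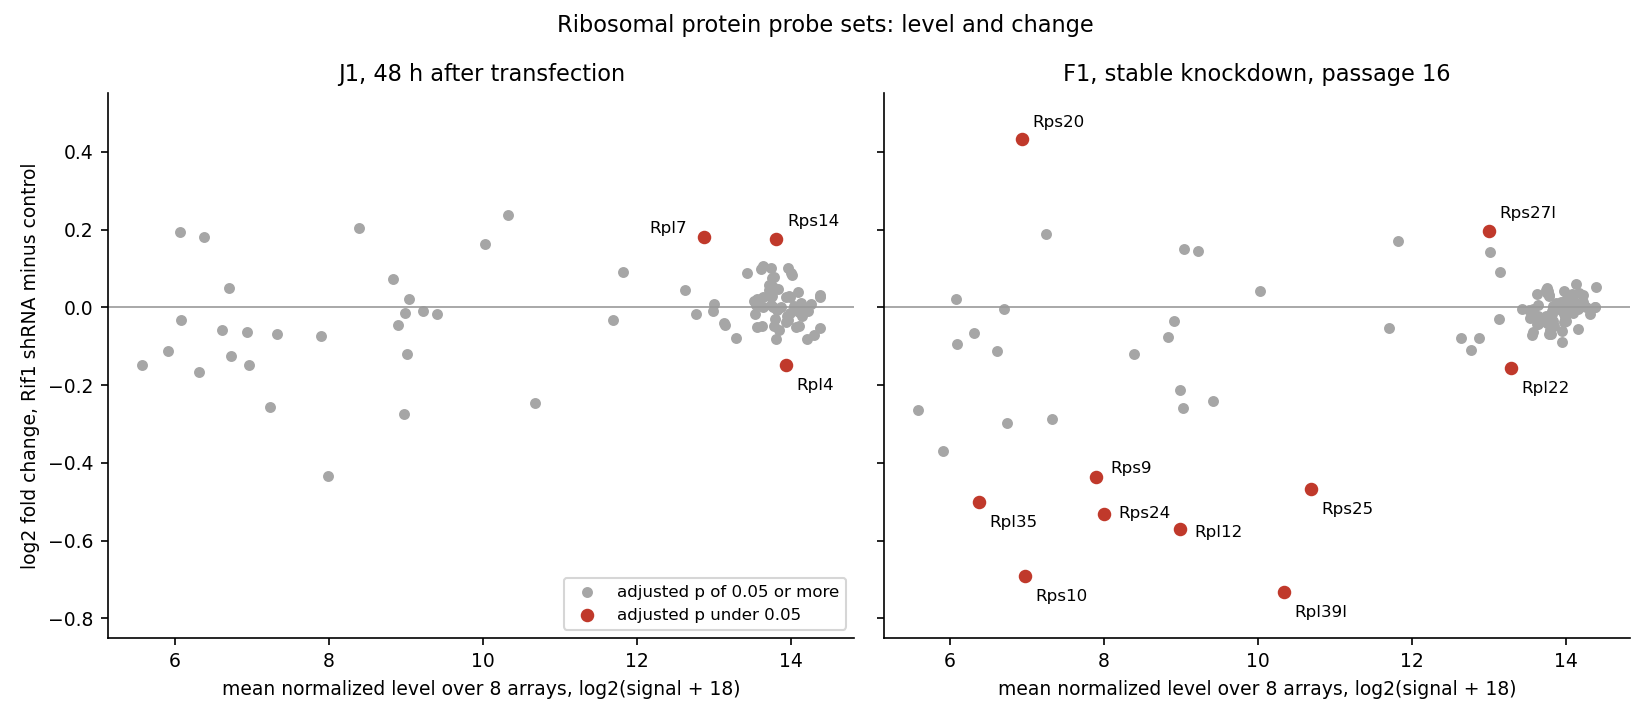
Change with Rif1 shRNA (vertical axis, log2) against mean normalized level (horizontal axis, log2) for the 95 tested ribosomal protein probe sets, J1 left and F1 right, with the 3 and 10 probe sets past a limma adjusted p of 0.05 in red and named. Most points crowd at the bright end near 0, and 8 of the 10 red points in F1 lie below a level of 12.

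The members fell into a bright and a dim class. The split at a mean normalized log2 of 12 was chosen after the values were seen. The bright class held 66 probe sets, covering 34 of the 44 genes at their brightest probe set, and deposited signals ran from 4108 to 23909 in J1 and from 5819 to 22105 in F1. Within it the change never exceeded 0.18 in size in J1 or 0.20 in F1. The median size was 0.04 in J1 and 0.03 in F1, against 0.05 and 0.07 for all 719 probe sets of that brightness. In the bright class 3 of 66 passed in J1 and 2 in F1, against 6.54% and 18.9% of all bright probe sets. The difference between settings passed for 1 of 66, against 13.4%.

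For the 34 genes of the bright class, every 95% interval of the change lay between 0.859-fold and 1.20-fold in J1 and between 0.887-fold and 1.16-fold in F1. The interval of the difference between the settings lay between 0.805-fold and 1.25-fold. At these levels and in this fit, the intervals of all 34 genes left out a log2 change of 0.5 either way in each contrast. The fit gives a probe set the same variance in both settings. However, the median residual SD was 0.115 in J1 and 0.0658 in F1. The J1 intervals may therefore be too narrow and the F1 ones too wide. With each setting fitted alone, calls over the array went from 1004 to 280 in J1 and from 4768 to 8127 in F1. Intervals were not computed that way. The highest signal of an array was 25180 to 29806, and compression of changes near the top of the scale was not tested.

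The dim class held the other 29 probe sets and most of the F1 calls. In J1, 0 of 29 passed the limma test, against 3.1% of all probe sets under the same level, with 5 at an unadjusted p under 0.05. Of all 31605 probe sets tested, bright ones included, 5404 were under that unadjusted p in J1. In F1, 8 of 29 passed (27.6%), 1 higher and 7 lower, against 15.0% of all such probe sets. For the difference between settings, 3 of 29 passed, all lower in F1, against 8.25% of the dim array. The median change of the dim members was -0.05 in J1 and -0.12 in F1. The class was set by the mean of all 8 arrays. For 11 of the 29 the F1 control signal was at least 4-fold above that of J1. The J1 signals of the class ran down to 6.56, within the range of the untested members. For members that low in J1 a change there could hardly be seen, so the J1 count and the difference say little about them.

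By subunit, the 24 large subunit genes had 1 gene called lower in J1 and 2 called lower in F1. The 20 measured small subunit genes had 1 called higher in J1 and 1 called lower in F1. These shares, 4.17% and 8.33% for the large and 5.0% in each setting for the small subunit, stood beside 4.03% in J1 and 18.8% in F1 over all 14714 genes. The F1 calls were Rpl39l and Rpl12 of the large and Rps25 of the small subunit. Rpl12 and Rps25 were read at dim member probe sets, and brighter probe sets that list them with predicted genes were not called. The median change was 0.004 and 0.01 in J1 for the large and small subunit, and -0.03 and -0.004 in F1. The stalk proteins, which recruit translation factors to the large subunit, were close to 0: Rplp0 changed by 0.08 in J1 and 0.02 in F1, and Rplp2 by 0.01 and 0.00, none past the threshold.

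Rpl39l had the largest F1 change of any member gene read at its brightest probe set. It encodes a paralog of Rpl39, a small protein lining the exit tunnel of the large subunit, and is known for its abundance in male germ cells. Its signals were 504 and 475 on the J1 control arrays and 609 and 532 with Rif1 shRNA. In F1 they were 3676 and 3672 on the control arrays and 2446 and 2257 with Rif1 shRNA. The F1 groups did not overlap, with both controls above both knockdown arrays, and the J1 groups did not overlap the other way. In F1 the log2 change was -0.73 (SE 0.08, limma adjusted p = 8.16e-05), which is 1.66-fold on the normalized scale. The deposited signal means were 3674 ± 2.87 and 2352 ± 134 (SD, n = 2). In J1 it was 0.24 (SE 0.08, limma adjusted p = 0.131). The difference between the settings was -0.97 (SE 0.11, limma adjusted p = 0.000354).

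The partner Rpl39 was measured among the members only by a dim probe set, with signals of 60.9 to 82.9 in J1 and 46.4 to 54.1 in F1. Its change was -0.17 in J1 and -0.07 in F1, with limma adjusted p of 0.62 and 0.842. A bright probe set that lists Rpl39 with a predicted gene had mean signals of 16810 and 16150 in J1 and 13260 and 13050 in F1, control first. Its changes were -0.05 and -0.03, both above the threshold. The fall of Rpl39l was thus not accompanied by a called change of Rpl39.

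Other paralogs moved little. Rps4l, a copy of the X-linked small subunit gene Rps4x, had signals of 4304 and 4108 on J1 control arrays, 4485 and 4237 with Rif1 shRNA, 8931 and 9113 on F1 control arrays and 8682 and 8660 with Rif1 shRNA. Its changes were 0.04 in J1 and -0.08 in F1, and Rps4x changed by -0.02 in each. Rpl3l, the striated muscle paralog of Rpl3, was dim and changed by -0.03 in J1 and -0.09 in F1. Its F1 signals of 30.57 to 35.18 lay within the range of the untested members, up to 47.04, so a change there could hardly be seen. None of Rps4l, Rps4x and Rpl3l passed the limma test, and Rpl3 had no probe set under the naming rule.

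Rps27l encodes a paralog of Rps27 whose transcription p53 can raise. Its called probe set had signals of 7619 and 7769 on J1 control arrays and 7975 and 7055 with Rif1 shRNA. In F1 the signals were 8399 and 8268 on control arrays and 9252 and 9560 with Rif1 shRNA. The J1 groups overlapped, while in F1 both knockdown arrays were above both controls. The F1 change was 0.20 (SE 0.05, limma adjusted p = 0.0284), and 2 other Rps27l probe sets changed by 0.14 and 0.09, with limma adjusted p of 0.129 and 0.37. Rps27 itself changed by -0.29 in F1 at a dim probe set (limma adjusted p = 0.287).

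**Figure D2:**
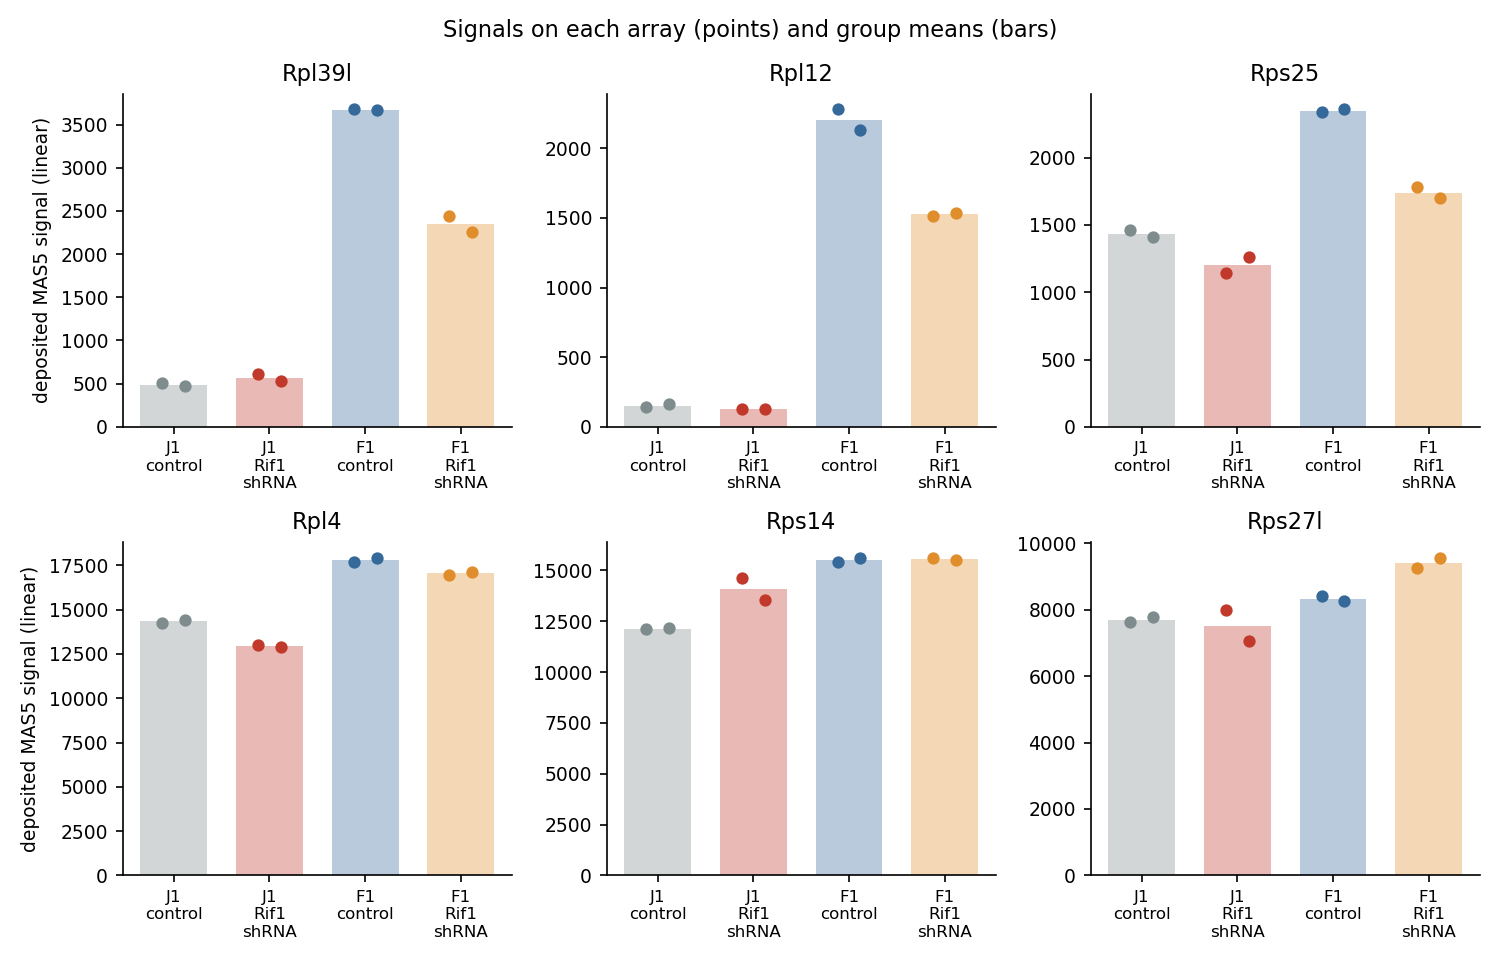
Deposited MAS5 signal on each of 8 arrays (points) with group means (bars from 0) for Rpl39l, Rpl12, Rps25, Rpl4, Rps14 and Rps27l. Rpl39l, Rpl12 and Rps25 were lower on both F1 Rif1 shRNA arrays than on both F1 controls. For Rpl4, Rps14 and Rps27l the control and Rif1 shRNA bars of a setting lie closer together.

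Rpl12, a protein at the base of the large subunit stalk, had a single member probe set. Its signals were 139 and 161 on J1 control arrays and 128 and 130 with Rif1 shRNA. In F1 they were 2279 and 2130 on control arrays and 1516 and 1536 with Rif1 shRNA, so the knockdown arrays were the lower ones in both settings without overlap. The F1 change was -0.57 (SE 0.10, limma adjusted p = 0.00208) and the J1 change -0.27 (limma adjusted p = 0.162). The difference between settings, -0.30, did not pass (limma adjusted p = 0.226). However, 2 bright probe sets that list Rpl12 with predicted genes changed by -0.05 in F1, and by 0.03 and -0.01 in J1, none of them called.

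Rps25, a small subunit protein that several viral internal ribosome entry sites depend on, showed the same arrangement. Its member probe set read 1460 and 1408 on J1 control arrays and 1143 and 1265 with Rif1 shRNA. In F1 it read 2336 and 2359 on control arrays and 1784 and 1697 with Rif1 shRNA. Both knockdown arrays were below both controls in each setting. The change was -0.47 in F1 (SE 0.06, limma adjusted p = 0.000495) and -0.25 in J1 (limma adjusted p = 0.0624). A bright probe set listing Rps25 with predicted genes changed by -0.01 in F1 and 0.004 in J1, neither called.

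The other F1 calls were probe sets that were not the brightest of their gene, and they are described here because they passed, after their values were seen. A dim Rps10 probe set had signals of 53.7 and 55.2 on J1 control arrays, 47.4 and 52.0 with Rif1 shRNA, 342 and 336 on F1 control arrays and 198 and 195 with Rif1 shRNA. The F1 groups did not overlap and were far above all J1 arrays, whose values lay just over those of the untested members. Its F1 change was -0.69 (SE 0.10, limma adjusted p = 0.00113) and the difference from J1 was -0.54 (limma adjusted p = 0.0469). Rps10, whose mutation can cause Diamond-Blackfan anaemia, had 5 bright probe sets, which changed by 0.03 to 0.05 in F1, none of them called.

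A dim Rps24 probe set read 732 and 759 on F1 control arrays and 532 and 506 with Rif1 shRNA, and on J1 arrays 111 and 123 in controls and 93.6 and 88.3 with Rif1 shRNA. The F1 change was -0.53 (SE 0.11, limma adjusted p = 0.0083), and the J1 change of -0.43 did not pass (limma adjusted p = 0.0667). The groups did not overlap in either setting, and the knockdown arrays were the lower ones. The 4 bright Rps24 probe sets changed by -0.07 to -0.02 in F1, none called, and another dim one by 0.02.

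A dim Rpl35 probe set, for a protein near the mouth of the exit tunnel, read 147 and 137 on F1 control arrays and 89.4 and 91.8 with Rif1 shRNA. On J1 arrays it read 37.0 and 37.1 in controls and 42.9 and 47.1 with Rif1 shRNA. In F1 both knockdown arrays were below both controls. The J1 signals lay in or next to the range of the untested members, up to 47.04, so no direction was read from them. The F1 change was -0.50 (SE 0.11, limma adjusted p = 0.00808), and the difference from J1 was -0.68 (limma adjusted p = 0.0171), which rests on those low J1 values. The 5 bright Rpl35 probe sets changed by -0.07 to -0.03 in F1, none called.

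A dim Rps9 probe set fell by 0.44 in F1 (SE 0.13, limma adjusted p = 0.0458), from 776 and 801 to 581 and 599, while the brightest Rps9 probe set changed by -0.004. A dim Rps20 probe set rose by 0.43 (SE 0.13, limma adjusted p = 0.04), from 106 and 85.8 to 150 and 148. It was the only dim member called higher in F1, and the bright Rps20 probe sets changed by 0.01 and -0.07. A bright Rpl22 probe set fell by 0.15 (limma adjusted p = 0.0368), from 10782 and 10835 to 9751 and 10338, and the brightest Rpl22 probe set changed by -0.06. Rpl22 has a separate paralog, Rpl22l1, which changed by 0.17 in J1 and 0.0004 in F1, neither called.

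Across the family, 21 genes had more than 1 tested member probe set. At least 1 probe set was called for 2 of these genes in J1, 7 in F1 and 3 for the difference. Any 1 call among several probe sets was enough here, and the same count was not made for other genes. Of single probe sets over the array, 3.18% were called in J1, 15.1% in F1 and 8.37% for the difference. For 0 of the 21 genes were all probe sets called by limma in any of the 3 contrasts, and no gene had probe sets called in opposite directions. Probe set names ending in x_at or s_at mark probes that can match several transcripts. Of the 43 members with such endings, 2 passed in J1 and 1 in F1, and of the 52 with other endings 1 and 9 passed. The 9 of 52 (17.3%) lay near the 15.1% of the array. Among 106 tested probe sets with several symbols, 0 passed in J1, with 7 at an unadjusted p under 0.05 in limma, against 5404 of all 31605. In F1, 15 of the 106 passed (14.2%). Of these 15 calls, 14 were among the 24 dim ones (58.3%, 6 higher and 8 lower) and 1 among the 82 bright ones, against 15.0% and 18.9% of the array at those levels.

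**Figure D3:**
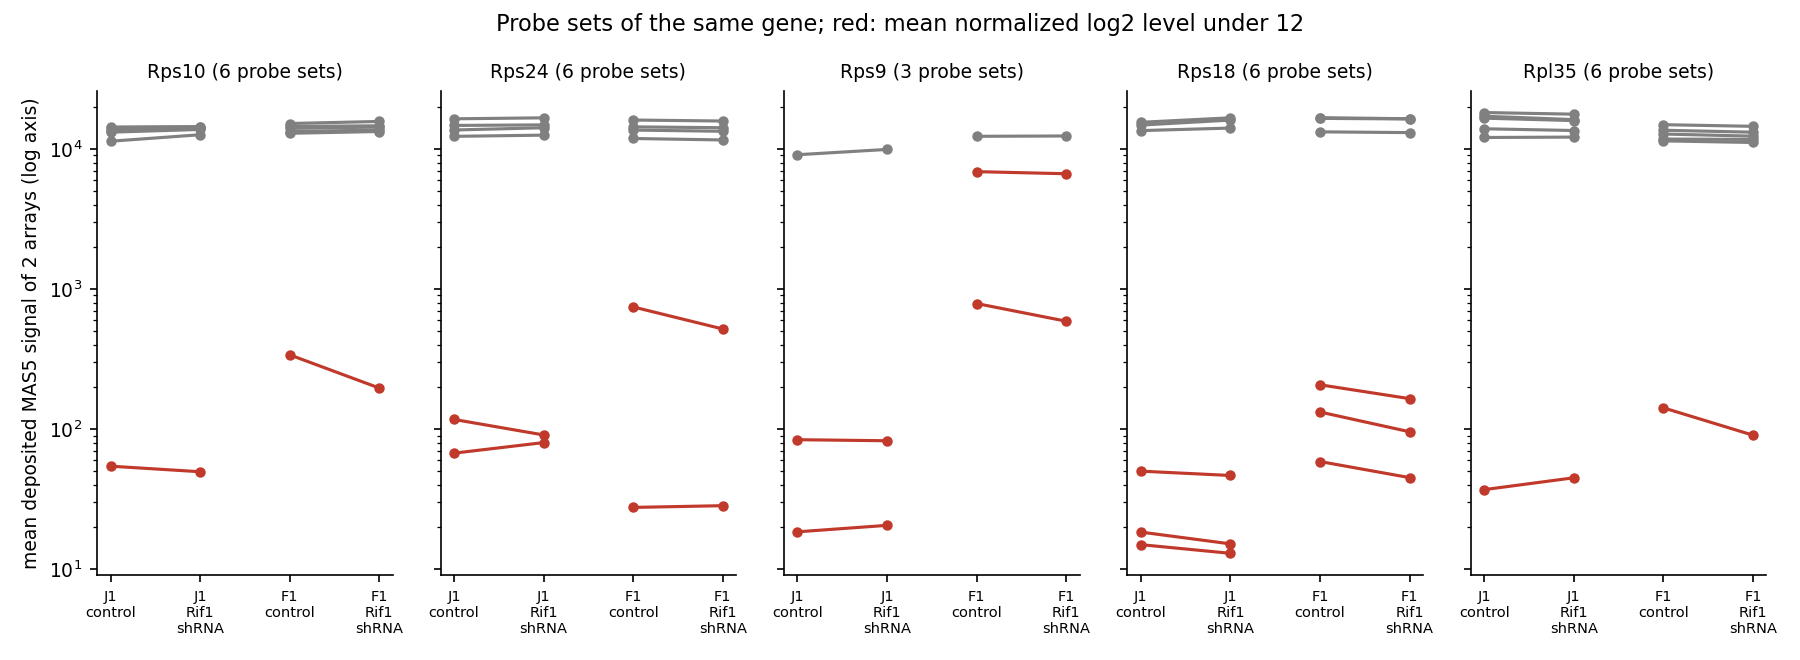
Mean deposited MAS5 signal of 2 arrays (log axis) in the 4 groups for every tested probe set of Rps10, Rps24, Rps9, Rps18 and Rpl35, with lines joining control and Rif1 shRNA within a setting. The lowest grey mean is the 9093 of Rps9 in J1 controls, while the red probe sets, with a mean normalized log2 under 12, lie below the grey ones and, but for 1 Rps24 probe set, higher in F1 than in J1.

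The calls in J1 were small. Rpl4, whose protein lines the exit tunnel of the large subunit, read 14277 and 14402 on control arrays and 13006 and 12921 with Rif1 shRNA. Both knockdown arrays were below both controls, and the change was -0.15 (SE 0.03, limma adjusted p = 0.035). In F1 the arrays read 17697 and 17927 against 16975 and 17117, again without overlap, and the change of -0.09 did not pass (limma adjusted p = 0.0917).

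Rps14, a protein of the small subunit platform, had signals of 12133 and 12149 on J1 control arrays and 14633 and 13523 with Rif1 shRNA. Both knockdown arrays were above both controls, with a change of 0.18 (SE 0.04, limma adjusted p = 0.0447). In F1 the arrays read 15405 and 15620 against 15591 and 15498, which overlapped, and the change was -0.01. The second Rps14 probe set changed by 0.10 in J1 (limma adjusted p = 0.149).

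One of 3 Rpl7 probe sets, for a protein of the large subunit, read 7349 and 7090 on J1 control arrays and 8341 and 8150 with Rif1 shRNA, a change of 0.18 (SE 0.04, limma adjusted p = 0.0328). In F1 it read 7721 and 7569 against 7364 and 7344. The knockdown arrays were thus the higher ones in J1 and the lower ones in F1. The difference was -0.26 (limma adjusted p = 0.0141). The other Rpl7 probe sets changed by 0.11 and 0.06 in J1, with limma adjusted p of 0.13 and 0.456. Leaving out any 1 of the 8 arrays ended each of these 3 J1 calls, except J1 Rif1 shRNA replicate 1 for Rpl4 and replicate 2 for Rps14 and Rpl7. The limma adjusted p then ran up to 0.175 for Rpl4, 0.167 for Rps14 and 0.165 for Rpl7. They moved beside the actin ratio and the fibroblast markers given above, whose part was not tested.

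In F1, the calls of Rpl39l, Rpl12, Rps25 and the dim Rps10 probe set stood in all 20 settings of the fit at an adjusted p under 0.05. The Rpl35 call stood in 17, Rps24 in 16, Rps20 in 15, Rps27l and Rps9 in 12 each and Rpl22 in 11. Leaving out 1 F1 array ended the Rps24 call whichever array it was, with limma adjusted p of 0.0543 to 0.0834. The F1 call of Rpl35 ended on leaving out F1 control replicate 1 or one of the F1 knockdown arrays, at 0.0693 to 0.0935. Leaving out any single F1 array also ended the calls of Rps9, Rps20 and Rps27l, with limma adjusted p up to 0.251, 0.317 and 0.187. J1 control replicate 2 did so for Rps27l too. The Rpl22 call ended without any one of the J1 and F1 control arrays or F1 Rif1 shRNA replicate 1, at up to 0.391. For the difference between settings, the calls of Rps10 and Rpl35 ended without any single F1 array, at up to 0.199 and 0.0987, and that of Rps10 also without either J1 control array. The Rpl7 difference ended without either F1 Rif1 shRNA array, F1 control replicate 1 or J1 control replicate 2, at up to 0.0909.

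The control levels of the 2 settings were compared in addition, after the values were seen. The deposited signal of 11 of 95 members (11.6%) was at least 4-fold higher on F1 than on J1 control arrays, against 4.23% of the array, and 0 members were at least 4-fold lower, against 2.46%. All 11 belonged to the dim class of 29. Among the 66 bright members the ratio ran from 0.706 to 2.14. The 11 were probe sets of Rpl12, Rpl37a, Rpl39l, Rps10 and Rps24, and 2 each of Rpl41, Rps18 and Rps9. An extreme case was an Rps9 probe set with 16.9 and 20.2 on J1 control arrays against 7095 and 6676 on F1 control arrays, a ratio of 372. Its Rif1 shRNA arrays read 20.6 and 20.6 in J1 and 6631 and 6673 in F1, so the 2 settings were far apart while control and knockdown lay close. The brightest Rps9 probe set had a ratio of 1.35.

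Among these 11, 5 were called lower with Rif1 shRNA in F1, namely those of Rpl12, Rpl39l, Rps10, Rps24 and Rps9. Of all 1336 probe sets that met the same 4-fold rule, 18.3% were called lower in F1. The high F1 control signal that chose them is also the baseline of the F1 change, so the count is a description only. The remaining 6 had F1 changes of -0.37 to -0.08. Their J1 changes were not read, since several had J1 signals as low as those of the untested members. The settings differ in cell line, strain, duration and array scaling at once, with a trimmed mean signal of 193 to 197 in J1 and 301 to 309 in F1. These cannot be told apart, and the ratios were given without a test.

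Genes outside the rule that act in making or using ribosomes were taken from 7 lists. Over all 14714 genes, 2911 in J1 and 4649 in F1 had an unadjusted p under 0.05 by limma, the background for such counts below. The genes with names or roles nearest to the members, 5 of 7 measured, had 0 calls in J1 and F1 by limma, with 2 and 1 at an unadjusted p under 0.05. Rpsa, a small subunit protein, changed by 0.02 in J1 and 0.01 in F1, and Fau, which encodes a small subunit protein fused to a ubiquitin-like one, by -0.04 and -0.03. Rpl7l1, a paralog of Rpl7, changed by 0.14 in J1 and -0.16 in F1. Only the difference of -0.30 passed (limma adjusted p = 0.0351).

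Ribosome assembly factors numbered 40, all measured, with 1 called higher in J1 and 4 lower in F1, and medians of 0.04 and -0.02. Among all 14714 genes, 4.03% were called in J1 and 18.8% in F1, with 8.2% called lower in F1. The 4 of 40 lower in F1 were thus near the background. Wdr43, a nucleolar protein of small subunit processing, rose by 0.40 in J1 (limma adjusted p = 0.0486) and fell by 0.37 in F1 (limma adjusted p = 0.0218). Its signal means were 1039 ± 132 and 1386 ± 206 in J1 and 2772 ± 94.0 and 2200 ± 40.7 in F1 (SD, n = 2). Leaving out any F1 array ended both calls, and the J1 call also ended without either J1 control array or J1 Rif1 shRNA replicate 2, with limma adjusted p up to 0.209. Dkc1, the pseudouridine synthase of box H/ACA particles and of telomerase, fell by 0.34 in F1 (limma adjusted p = 0.00244), from 5048 ± 237 to 4057 ± 73.4, and changed by -0.01 in J1.

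RNA polymerase I and III factors that serve ribosomal RNA were measured for 18 of 21 genes. In J1, 0 passed, with 2 at an unadjusted p under 0.05 by limma. In F1, 1 rose and 2 fell (16.7% called, against 18.8% over all genes), with a median of 0.02. Taf1d, of the polymerase I selectivity factor, fell by 0.47 (limma adjusted p = 0.00564), Rrn3, the polymerase I initiation factor, fell by 0.29 and Polr1d, a shared polymerase subunit, rose by 0.21. Leaving out F1 control replicate 1, or one of the F1 knockdown arrays, ended the Rrn3 call, at a limma adjusted p up to 0.126.

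Translation factors were measured for 28 of 32 genes. In J1, 2 rose and 0 fell (7.14% called, against 4.03% over all genes), with a median of 0.04. They were Btf3, a subunit of the nascent polypeptide-associated complex, with 0.37 (limma adjusted p = 0.00465), and Eif4a2, an initiation helicase, with 0.25 (limma adjusted p = 0.0259). In F1, 1 rose and 2 fell (10.7% called, against 18.8% over all genes), with a median of -0.03. Eif4b, a helper of that helicase, fell by 0.31 (limma adjusted p = 0.00462), and Nap1l1, a histone chaperone whose transcript is of the oligopyrimidine type, fell by 0.22. The Eif4a2 call ended without either J1 control array, J1 Rif1 shRNA replicate 2 or either F1 Rif1 shRNA array, at up to 0.111. The Eif4b call ended without F1 Rif1 shRNA replicate 1 or F1 control replicate 2, and that of Nap1l1 without either F1 Rif1 shRNA array or F1 control replicate 1.

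The hosts of small nucleolar RNAs, many of whose transcripts also begin with a pyrimidine run, were measured for 11 of 13 genes. In J1, 0 passed, with 3 at an unadjusted p under 0.05 by limma, and the median was 0.07. In F1, 4 of the 11 fell (36.4%) and 0 rose, with a median of -0.19. Snhg12 fell by 0.48 in F1 (limma adjusted p = 0.00255), from 1983 ± 96.9 to 1466 ± 28.0 (SD, n = 2), and Gas5 fell by 0.23 (limma adjusted p = 0.00315), from 8761 ± 234 to 7704 ± 175. The Gas5 call ended without F1 Rif1 shRNA replicate 2 (limma adjusted p = 0.0555). The effect in F1 was lower than in J1 for 5 of 11 (45.5%), against 4.37% of all 14714 genes. Ribosomal protein genes read at their brightest probe set had 3 of 44 called lower in F1 (6.82%), near the 8.2% called lower among all 14714 genes. Of these 3, Rpl12 and Rps25 were read at dim member probe sets, as given above. The difference between the snoRNA hosts and the ribosomal protein genes was not tested.

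Regulators of translation and of ribosomal protein transcription were measured for 12 of 15 genes. In J1 there were 0 calls by limma, with 7 at an unadjusted p under 0.05, against 2911 of all 14714 genes. In F1, 3 rose and 2 fell (41.7% called, against 18.8% over all genes). Mdm2, the p53 ubiquitin ligase that free ribosomal proteins such as Rpl11 can bind, rose by 0.72 (limma adjusted p = 3.99e-05), from 1906 ± 73.2 to 3102 ± 234. Eif4ebp1, an mTOR-controlled translation repressor, fell by 0.31 (limma adjusted p = 0.00171). Myc, an activator of ribosome production, rose by 0.52 from 295 ± 37.9 to 469.8 ± 14.1, and Mycn fell by 0.36 from 2993 ± 12.2 to 2394 ± 65.4. The 2 Myc family members were named after their values were seen.

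Mitochondrial ribosomal proteins, encoded in the nucleus but part of another ribosome, numbered 76, all measured. In J1, Mrpl13 rose by 0.64 (limma adjusted p = 0.000344) and Mrps22 fell by 0.44 (limma adjusted p = 0.00614), and the list median was 0.05. In F1, 7 rose and 4 fell, with a median of 0.005. Among them Mrps11 rose by 0.55 and Mrpl16 by 0.37. The Mrpl16 call ended without F1 Rif1 shRNA replicate 1 (limma adjusted p = 0.0646). Over all 14714 genes at their brightest probe set, 4.03% were called in J1 and 18.8% in F1.

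**Figure D4:**
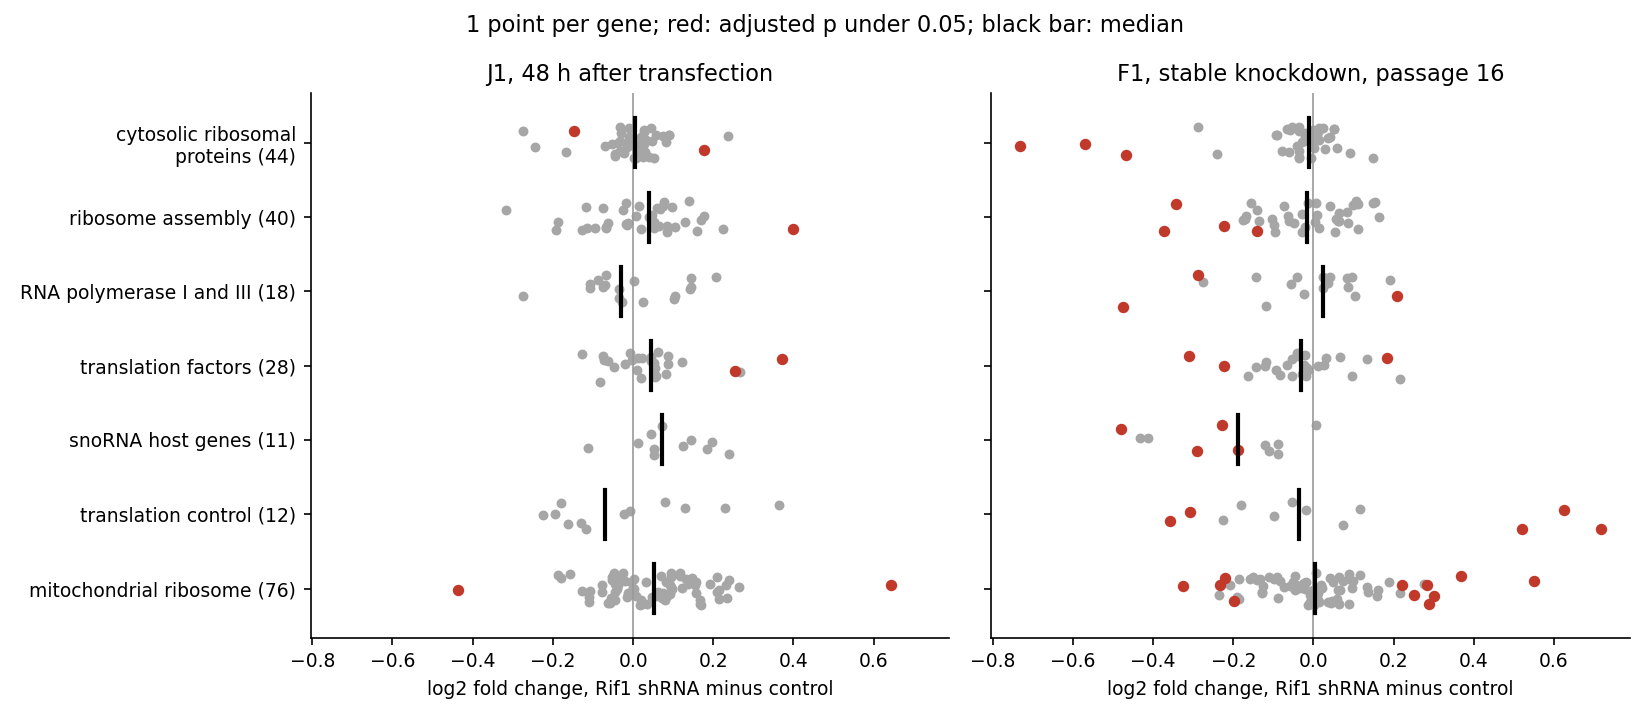
Change with Rif1 shRNA (log2, horizontal axis) for each gene, 1 point a gene, in the 44 cytosolic ribosomal protein genes and the lists of related genes, J1 left and F1 right, with genes past a limma adjusted p of 0.05 in red and the list median as a black bar. The cytosolic ribosomal proteins crowd near 0, with median sizes of change of 0.03 in J1 and 0.04 in F1, and Rpl39l, Rpl12 and Rps25 lie apart from them in F1. Rpl12 and Rps25 are shown at dim member probe sets.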

How the data were processed

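RNA levels of mouse embryonic stem cells were measured on Affymetrix arrays. The deposited values are linear intensity signals, 1 per probe set and array, made with MAS5 (version not given in the sources used here), per the submitters' processing notes. The samples fell into 4 groups of 2 arrays by their transfection and cell line labels. Precision is limited by the small number of arrays.

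After adding an offset of 18 (the 10th percentile of the table) and taking log2, all 8 arrays were quantile normalized together, because the trimmed mean signal differed between the settings. Then 64 control probe sets were left out, and a probe set was tested if 2 or more arrays had it over their 40th percentile (31605). Group means were fitted with limma 3.58.1 in R 4.3.3 (lmFit, eBayes with an intensity trend, 4 residual and 6.94 prior degrees of freedom). The contrasts set Rif1 shRNA against control within each setting, and the F1 effect against the J1 effect. All p-values are two-sided and Benjamini-Hochberg adjusted over the 31605 probe sets, with a threshold of 0.05. The fit was tested on simulated data.

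Gene symbols came from the platform annotation. A gene was read at its brightest tested probe set. The text names Rif1, member genes past the threshold at that probe set (up to 10 each way per contrast), paralogs with their partners, and from each of 7 lists the 2 genes with the smallest p in J1 and in F1. Further probe sets and list genes were named with their values in view. The members and lists were chosen with earlier results of these data known. Alternatives were other scalings, offsets, filters and thresholds, the replicate number as a block, a crossed block added after seeing the data, and each array left out in turn.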

Additional observations from a re-analysis of the deposited data

Results flagged for a closer look

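The effect of Rif1 shRNA differed between F1 and J1, by a test of the difference itself in limma with an adjusted p under 0.05, for 4 member probe sets. The F1 effect minus the J1 effect was -0.97 (log2) for Rpl39l, -0.68 for the dim Rpl35 probe set, -0.54 for the dim Rps10 probe set, both with J1 signals near those of the untested members, and -0.26 for 1 Rpl7 probe set. For Rif1 itself it was -0.66.

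Among named genes of the related lists the same test passed for the following. In assembly, Wdr43 differed by -0.77, Wdr12 by -0.45 and Dkc1 by -0.33. Of the snoRNA hosts, Snhg12 differed by -0.72, Snhg1 by -0.31 and Gas5 by -0.27. In translation and its control, Rptor differed by -0.59, Btf3 by -0.46, Eif4ebp1 by -0.44, Eif4a2 by -0.40 and Mdm2 by 0.49. Mrps22 and Mrpl16 of the mitochondrial ribosome differed by 0.50 and 0.41, and Mrpl13 by -0.42. Rpl7l1, the Rpl7 paralog, differed by -0.30. The settings differ in line, strain, duration and way of knockdown, which cannot be told apart.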

How the results depend on the processing

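The count of member probe sets called in J1, 3 as reported, was 0 with median centring, without the intensity trend, with the 4 J1 arrays alone, with the replicate number as a block and at an adjusted p under 0.01. It was 1 without probe sets ending in x_at or s_at. A crossed replicate block in J1, chosen after seeing the data, gave 5 member calls and 1786 over the array. Leaving out 1 array at a time gave 0 to 7, with 0 without any F1 array or either J1 control array and 7 without J1 Rif1 shRNA replicate 2. The F1 count of 10 was 19 with the 4 F1 arrays alone and 6 at an adjusted p under 0.01, and 4 to 15 with 1 array left out. The count for the difference, 4 as reported, was 2 with the replicate block, 1 at an adjusted p under 0.01, and 1 to 9 with 1 array left out. Over the whole array, the difference was called for 1578 higher and 1066 lower, and for 1953 higher among 2741 with median centring. The median change over member genes in J1, 0.0059, was -0.0312 with median centring and -0.0015 to 0.0418 with 1 array left out. In F1, -0.0112 became -0.0432 when a gene's tested probe sets were averaged, -0.0255 with median centring and -0.0127 to -0.0099 with 1 array left out. The cause of these shifts was not tested. Of 1256 values of single probe sets under the alternatives, 1107 kept their direction and side of the threshold, 138 lost their call, 11 gained one and 0 reversed. Arrays with the same number deviated together with a correlation of -0.339 in J1 and 0.194 in F1, so the numbers were not taken to pair the samples.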
